A study of Homo sapiens with 6 samples.

Results

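The genes described here are 8 of the 35639 genes of an RNA-seq table: GON7, PNMA6B, TNFSF12-TNFSF13, TNFSF12, TNFSF13, AC146944.1, AP002748.5 and UPK3BL1. Of these, 6 were chosen by their own difference between the mutant and the wild-type H3.3 libraries, so their values in these groups are given as a description and carry no test. Among the 6, 5 were listed at or near 0 in one of these groups, and UPK3BL1 was lower in one but detected in both. TNFSF12 and TNFSF13 were added because the readthrough gene TNFSF12-TNFSF13 runs across both. The question asked of them was whether estimated counts were passed from one gene to another that shares its sequence.

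The cells were hFOB 1.19, an immortalised human fetal osteoblastic line that is temperature-sensitive and was kept at 34 °C, at which it proliferates. They carried an empty vector (EV), HA-tagged wild-type histone H3.3 (H3.3-WT) or HA-tagged H3.3 with tryptophan in place of glycine 34 (H3.3-G34W), the substitution found in giant cell tumour of bone, with 2 libraries per group. Per the paper, the added H3.3 was encoded by a Drosophila cDNA and delivered by lentivirus, and transduced cells were sorted for dTomato. The groups are called EV, WT and G34W from here on. Poly(A) RNA was sequenced, and a strand-specific library kit is named for these cells. The paper's methods also describe a TruSeq RNA preparation. All groups come from a single cell line that still holds its own H3.3 genes, and nothing in the labels says that the 2 libraries of a group were separate transductions, so p-values measure the spread between libraries, which may be technical.

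Values are normalised estimated counts: reads divided among transcripts by the estimation program, summed per gene and scaled per library. They are not read counts, so no depth, counting interval or detection floor was worked out, and a value of 0 is reported as listed at 0. The values summed to between 38821143 and 48024590 in the 5 libraries used. EV replicate 1 was left out, since it was listed at 0 for 28688 genes (80.5%), so EV is represented by replicate 2 alone. Groups follow the library titles. The genotype field swaps the 2 H3.3 groups, and every direction given here would turn with it. Under the titles, SCUBE3 was lower in G34W, with a log2 fold change over WT of -2.08. The paper reports lower SCUBE3 in G34W than in WT, also by qPCR. The labels were not settled from these values.

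G34W replicate 1 stood apart from the other libraries. A list of 12 pluripotency genes summed to 66576 there and to between 964 and 1142 in the other 4 libraries, led by POU5F1 at 19441 against 41.6 to 75.4. Of the 12, PRDM14 was at 0 in EV replicate 2, and none was at or under 2 in the other 4 libraries. A list of 9 osteoblast and mesenchymal genes summed to 332660 in G34W replicate 1 and to between 398330 and 485399 elsewhere. VIM was the most abundant, at 109267 to 233828. In G34W replicate 1, VIM, COL1A1, COL3A1, RUNX2 and BGLAP were at their lowest, and ALPL and SPP1 at their highest. Of 5 myeloid genes, CD68 was the most abundant at 850 to 1268 and AIF1 was at or under 2 in every library used. The part of these markers in the results was not tested; each result is given by library, so that it can be read with and without G34W replicate 1.

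A readthrough transcript begins in one gene, passes its end and is spliced to exons of the next gene downstream. Most of its sequence is then also sequence of its partner genes, and only the junction that joins them sets it apart. Pseudogenes and recent duplicates raise the same difficulty: a short read can match several copies equally well, and the estimation program has to divide it. To show how much sequence each gene had to itself, every stretch of 31 bases (31-mer) in its transcripts was looked up in 254413 reference transcripts of 64476 genes. The reference was GENCODE 44 placed on GRCh37, which is not the Ensembl annotation on GRCh38 that the authors used, so these shares describe the genes and not the exact index behind the values.

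GON7 shared none of its 1122 31-mers with another gene. TNFSF12 had 85.7% and TNFSF13 48.8% of theirs in no other gene. The other members had little or nothing of their own. PNMA6B had 7.85%, UPK3BL1 1.83%, TNFSF12-TNFSF13 1.51% (27 of 1786), AP002748.5 0.853% (30 of 3517) and AC146944.1 none of 388.

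**Figure D1:**
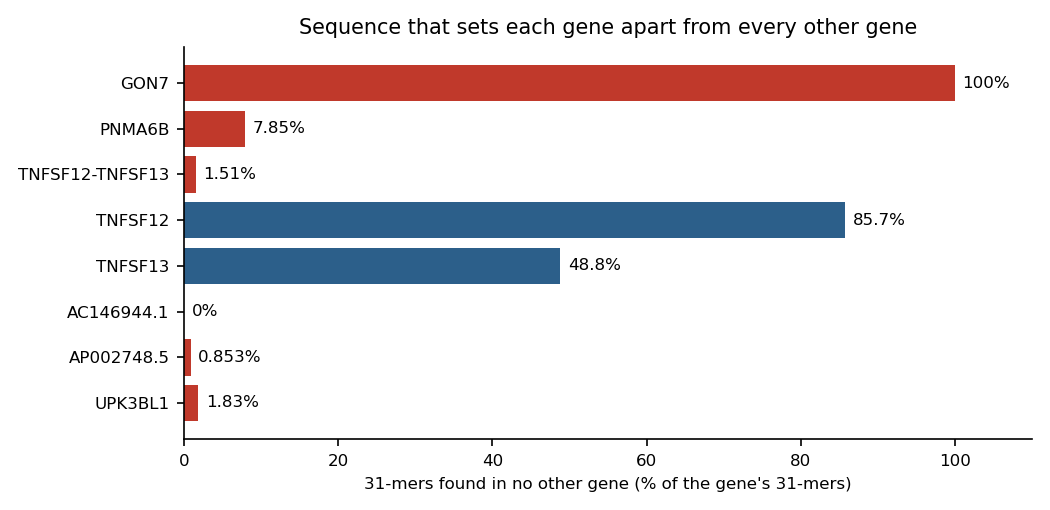
Percent of each gene's 31-mers, on the horizontal axis, that occur in no other gene of the reference; blue bars are the genes added for their position and red bars those chosen by their values. GON7 stands at 100%, and AC146944.1, AP002748.5, TNFSF12-TNFSF13 and UPK3BL1 each lie under 2%.

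For both readthrough genes, the 31-mers found nowhere else formed a single run across 1 exon junction within the coding sequence. Only single 31-mers were looked up, not both ends of a read pair together. By that measure, these 2 junctions are the sequence that sets the readthrough genes apart. They are shown from the reference transcripts, 5′ to 3′ on the plus strand, with bases of the first partner gene in lower case and those of the second in capitals. In TNFSF12-TNFSF13 (GRCh37, chr17:7452416-7464918) exon 6 ends at 7460219 and exon 7 begins at 7462941. In AP002748.5 (GRCh37, chr11:66276550-66301084) exon 1 ends at 66276785 and exon 2 begins at 66278484.
TNFSF12-TNFSF13: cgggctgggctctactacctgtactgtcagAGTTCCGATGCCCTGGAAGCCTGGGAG
AP002748.5: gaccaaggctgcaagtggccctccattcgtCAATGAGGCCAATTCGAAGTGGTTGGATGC

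**Figure D2:**
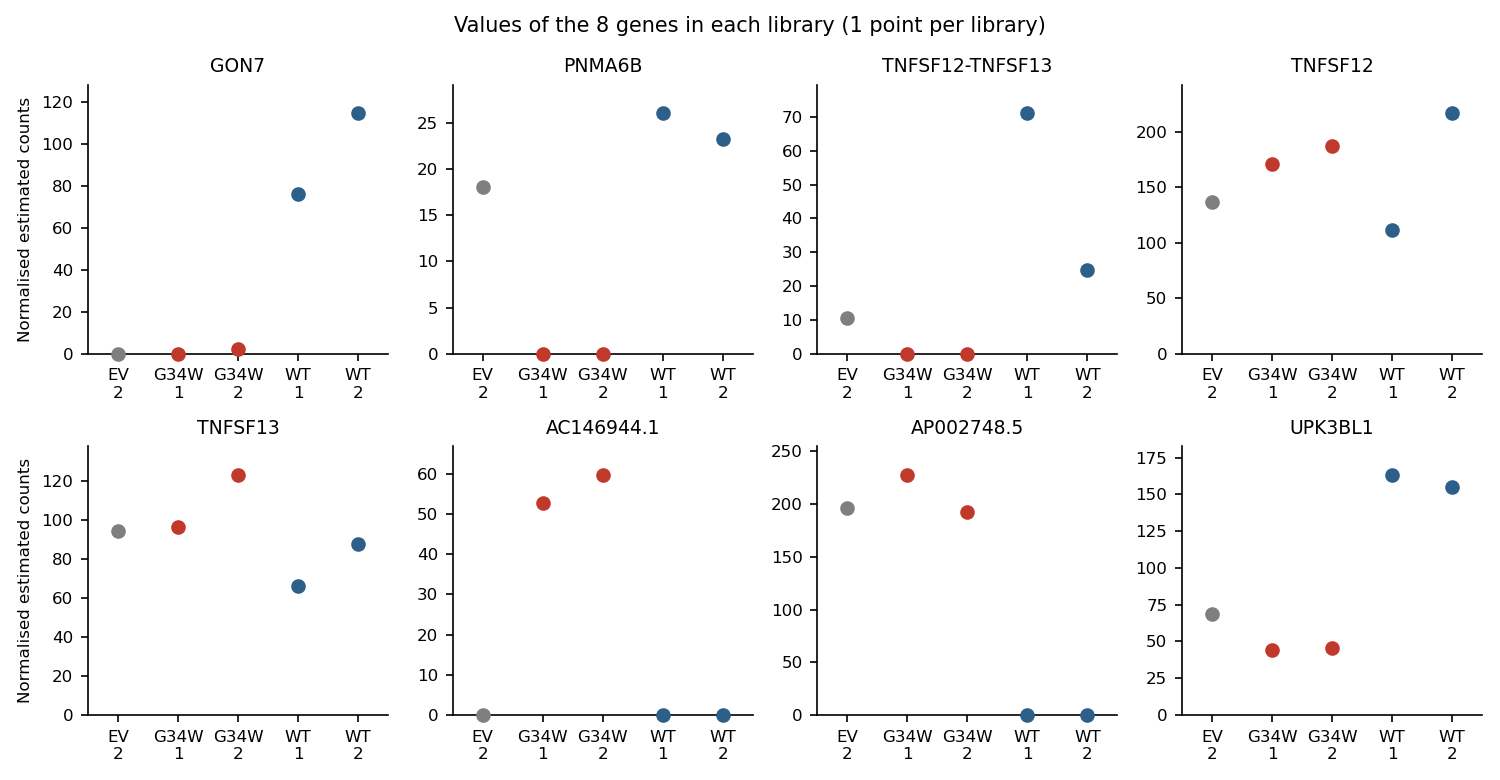
Normalised estimated counts of the 8 genes on the vertical axis of each panel, from 0, with 1 point per library (grey EV, red G34W, blue WT). GON7, PNMA6B and TNFSF12-TNFSF13 lie at or near 0 in both G34W libraries, AC146944.1 and AP002748.5 in both WT libraries, and UPK3BL1 reaches 0 in no library.

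With a gene called off at a value of at most 2 in both libraries of one H3.3 group and on at 20 or more in both of the other, 7 genes of the table (0.0196%) met the limits. Of these, 3 were off in G34W (0.00842%), all of them members: GON7, PNMA6B and TNFSF12-TNFSF13. The other 4 were off in WT (0.0112%): of them AC146944.1 and AP002748.5 are members and ANKRD34B and SPCS2P4 are not. UPK3BL1 did not meet the limits, nor did TNFSF12 and TNFSF13. The members were selected on this contrast, so nothing is read from their count. All 8 passed the filter of the fit described below, some of them only through the group in which they were high.

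Just inside the limits, GON7 had 1.94 in G34W replicate 2, and PNMA6B had 23.3 in WT replicate 2. Just outside them, DOK6 was 2.38 and 1.56 in the WT libraries and 52.1 and 92.3 in the G34W libraries. PCDHB15 reached 18.9 in G34W replicate 2, short of 20, with 129 in replicate 1 and under 2 in both WT libraries. Single libraries of the same group also differed in this way. Between the 2 G34W libraries 332 genes were off in one and on in the other, 273 of them on in replicate 1. Between the 2 WT libraries 163 genes were. These pairs set 1 library against 1, a looser criterion than 2 against 2. Set against the WT libraries in the same way, G34W replicate 1 gave 320 and 473 genes and G34W replicate 2 gave 81 and 127, so single pairs across the groups lay both above and below the pairs within them.

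The TNFSF12 to TNFSF13 locus holds genes for secreted ligands of the tumour necrosis factor superfamily. TNFSF12 encodes TWEAK, whose receptor is TNFRSF12A (Fn14), and TNFSF13 encodes APRIL, which binds TNFRSF13B (TACI) and TNFRSF17 (BCMA) on cells of the B lineage. The readthrough transcript encodes a joined protein known as TWE-PRIL. On GRCh38.p14, RefSeq places TNFSF12 (ENSG00000239697) at chr17:7549058-7557881, TNFSF13 (ENSG00000161955) at chr17:7558282-7561601 and TNFSF12-TNFSF13 (ENSG00000248871) across both, at chr17:7549058-7561601.

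TNFSF12-TNFSF13 was listed at 0 in both G34W libraries, at 71.1 and 24.8 in WT replicates 1 and 2, and at 10.6 in EV replicate 2. The WT libraries differed from each other by more than EV replicate 2 did from the lower of them. Of its 31-mers, 69.2% were shared with TNFSF13 and 29.3% with TNFSF12. TNFSF12 was 171 and 187 in G34W, 111 and 217 in WT and 136 in EV replicate 2. Both G34W libraries lay between the 2 WT libraries. TNFSF13 was 96.6 and 123 in G34W, 66.4 and 87.9 in WT and 94.8 in EV replicate 2. Both G34W libraries were above both WT libraries, as they were for 11.5% of the 16436 genes that passed the filter (at least 10 in at least 2 of the 5 libraries).

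Neither partner passed the test. The fit was limma on log2(value + 1) over the 5 libraries, with Benjamini-Hochberg adjustment over 16436 genes; on this scale the change of a low gene comes out too small. The log2 fold change, G34W over WT, was 0.20 for TNFSF12 (standard error, SE, 0.49, 95% interval -0.91 to 1.31, adjusted p = 1) and 0.51 for TNFSF13 (SE 0.53, 95% interval -0.69 to 1.71, adjusted p = 1). Without WT replicate 1, the TNFSF12 value turned to -0.28. The intervals leave room for a change of more than 1 log2 unit in both genes. In the same fit 0 of all 16436 genes (0%) had an adjusted p under 0.05, and 466 (2.84%) had an unadjusted p under 0.05. Without G34W replicate 2, so with replicate 1 alone for that group, 117 genes were called; without G34W replicate 1, 0 genes were, and without WT replicate 1 or 2 there were 11 and 1.

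The locus as a whole differed little. TNFSF12, TNFSF13 and the readthrough gene summed to 267 and 311 in G34W, 248 and 329 in WT and 242 in EV replicate 2. The means were 289 ± 30.8 and 289 ± 57.1 (SD, n = 2 each), a log2 difference of 0.01, and the groups overlapped, as they did for 73.6% of the genes that passed the filter. They also overlapped without the readthrough gene, at 267 and 311 in G34W and 177 and 304 in WT, with a log2 difference of 0.31. With TNFSF13 alone, the partner that shares most of its sequence, the readthrough gene summed to 96.6 and 123 in G34W and 137 and 113 in WT. These sums overlapped, where TNFSF13 by itself did not. The readthrough gene was chosen as higher in WT, so adding it could only raise the WT sums. Of the sum of all 3 genes, the readthrough gene held none in G34W, 28.6% and 7.53% in WT, and 4.39% in EV replicate 2. WT replicate 1, which had the most readthrough signal, had the lowest values of both TNFSF12 and TNFSF13 among the 5 libraries. WT replicate 2, with the next most, had the highest TNFSF12 (217) and the next lowest TNFSF13 (87.9). How much of the readthrough signal came from reads across the junction cannot be read from values per gene, and whether the zeros of this or any other member arose in the division of reads was not tested.

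Of the 23 TNF ligands and receptors listed, 15 were tested, TNFSF12 and TNFSF13 among them, and 0 were called in either direction. Their median log2 fold change was -0.19, against -0.06 over all genes tested. At an unadjusted p under 0.05 there was 1 higher gene, EDA, and 1 lower gene, CD70. EDA, a ligand of ectodermal development, was 55.0 and 9.88 in G34W, 3.44 and 0 in WT and 11.1 in EV replicate 2. Only G34W replicate 1 lay above EV replicate 2. CD70, the ligand of CD27, was 143 and 151 in G34W, 318 and 289 in WT and 292 in EV replicate 2. Neither passed adjustment (limma adjusted p = 1 for both). Among the receptors, TNFRSF12A ranged from 12013 to 18990 over the 5 libraries, while TNFRSF13B did not exceed 1.44 and TNFRSF17 did not exceed 10.9. The next genes on either side were POLR2A, the largest subunit of RNA polymerase II, at 744 to 1329, and SENP3, a SUMO protease, at 6456 to 7414.

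AP002748.5 (ENSG00000256349) is annotated as a readthrough gene. It joins an exon at the end of DPP3, which encodes a dipeptidyl peptidase, to exons of BBS1, which encodes a subunit of the BBSome, a complex that carries membrane proteins to the cilium. It was listed at 0 in both WT libraries and at 228 and 193 in the G34W libraries, with 196 in EV replicate 2. EV replicate 2 was thus on the side of G34W. Of its 31-mers, 93.3% were shared with BBS1 and 5.86% with DPP3.

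BBS1 showed the opposite order. It was 375 and 472 in G34W and 589 and 614 in WT, both G34W libraries being below both WT libraries, as for 14.9% of genes that passed the filter, and 595 in EV replicate 2. Its log2 fold change was -0.51 (SE 0.32, limma adjusted p = 1). Added together, AP002748.5 and BBS1 came to 603 and 665 in G34W, 589 and 614 in WT and 791 in EV replicate 2. The sums of the H3.3 groups overlapped, with a log2 difference of 0.07, where BBS1 alone did not overlap. Of all genes that passed the filter, 73.6% overlapped. AP002748.5 was chosen as higher in G34W, so adding it could only raise the G34W sums, and nothing is read from the overlap. AP002748.5 held 37.8% and 29.0% of this sum in G34W, none in WT and 24.8% in EV replicate 2. DPP3 was 3091 and 4436 in G34W and 2787 and 4957 in WT, with a log2 fold change of -0.01 (limma adjusted p = 1). With DPP3 included the sum was 3695 and 5100 in G34W and 3376 and 5571 in WT, which overlapped with or without AP002748.5. ZDHHC24, a palmitoyltransferase gene that overlaps the BBS1 end of the locus, ranged from 1064 to 1574.

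AC146944.1 (ENSG00000196302) is an unprocessed pseudogene of GUSB, the gene for lysosomal beta-glucuronidase, and is named GUSBP15 in GENCODE 44 (GRCh37, chr5:69812214-69851093, minus strand). It was listed at 52.7 and 59.7 in G34W and at 0 in both WT libraries and in EV replicate 2. All of its 31-mers also occur in AC146949.1 (ENSG00000235558, named GUSBP17, at chr5:70516183-70555065 on GRCh37). By single 31-mers, no part of its reference transcript sets it apart from that gene. AC146949.1 was 0 and 91.0 in G34W, 126 and 138 in WT and 62.5 in EV replicate 2. In G34W replicate 1 only AC146944.1 of the pair held signal; in both WT libraries and EV replicate 2 only AC146949.1 did; in G34W replicate 2 both did. The pair summed to 52.7 and 151 in G34W, 126 and 138 in WT and 62.5 in EV replicate 2. The sums overlapped, where AC146949.1 alone was lower in both G34W libraries than in both WT libraries. That order held for 14.9% of genes that passed the filter. AC146944.1 was chosen as higher in G34W, so adding it could only raise the G34W sums. Over AC146944.1 and the 12 genes of the table that held at least 50% of its 31-mers, the sums were 1251 and 2149 in G34W and 1269 and 1364 in WT. They overlapped, as they did without AC146944.1, at 1198 and 2089 in G34W. Taken 1 at a time, 3 of these 12 genes had overlapping groups when added to AC146944.1, AC146949.1 among them, against 6 of the 12 on their own and 73.6% of all genes that passed the filter. GUSB itself was 2507 and 3398 in G34W and 2372 and 2307 in WT, with a log2 fold change of 0.32 (SE 0.26, limma adjusted p = 1). That value was 0.54 without G34W replicate 1 and 0.10 without G34W replicate 2.

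PNMA6B (ENSG00000268883; GRCh38.p14 RefSeq, chrX:153075613-153077617) belongs to the paraneoplastic Ma antigen family, genes derived from the Gag gene of a retrotransposon, and RefSeq lists it as a pseudogene. It was listed at 0 in both G34W libraries, 26.1 and 23.3 in WT and 18.1 in EV replicate 2. EV replicate 2 was thus on the side of WT. Its identifier in the table is not in the GENCODE reference, so its sequence was taken from the entry of the same symbol. Of the 31-mers of that entry, 92.1% are also in PNMA6A and 90.2% in PNMA6D. PNMA6D had no value here, so it is in no sum. PNMA6A lies next to PNMA6B, at chrX:153072454-153075019. It was 209 and 232 in G34W, 127 and 195 in WT and 73.7 in EV replicate 2, with a log2 fold change of 0.48 (SE 0.46, limma adjusted p = 1). Without WT replicate 1 this fold change was 0.18, and without WT replicate 2 it was 0.79. PNMA6A and PNMA6B summed to 209 and 232 in G34W, 153 and 218 in WT and 91.8 in EV replicate 2. PNMA6A alone did not overlap between the H3.3 groups, both G34W libraries being above both WT libraries as for 11.5% of genes that passed the filter. The sum overlapped, as 73.6% of those genes did. PNMA6B was chosen as higher in WT, so adding it could only raise the WT sums. Of 15 PNMA family genes listed, 9 were tested apart from PNMA6B and 0 were called, with a median log2 fold change of -0.07. PNMA1 and PNMA8A ranged from 1655 to 2644 and from 2251 to 3572.

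**Figure D3:**
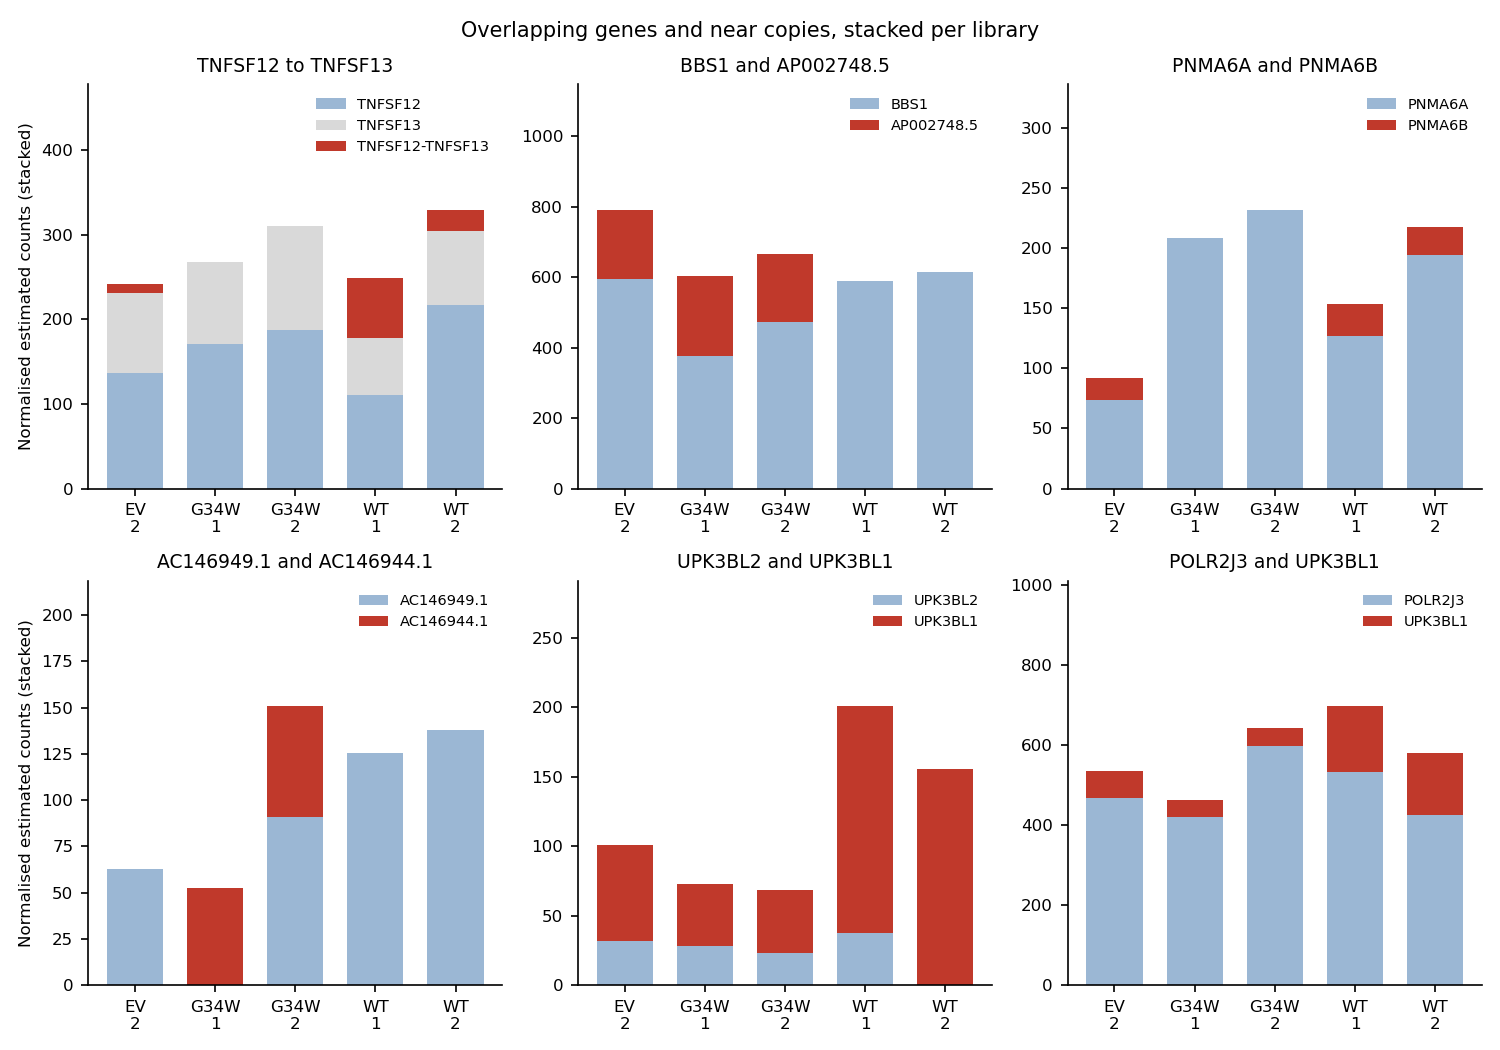
Normalised estimated counts of genes that share sequence, stacked per library on the vertical axis from 0; red is the gene chosen by its values and blue or grey its partners. In the first 4 panels the G34W and WT bars overlap in height although the red part is at 0 in both libraries of one of these groups; in the panel of UPK3BL1 and UPK3BL2 both WT bars, at 200 and 155, are above both G34W bars, at 72.7 and 68.2, and in that of UPK3BL1 and POLR2J3 the bars overlap.

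UPK3BL1 (ENSG00000267368; GRCh38.p14 RefSeq, chr7:102637025-102642791) is a uroplakin 3B-like gene in a duplicated segment with POLR2J paralogues. It was 44.5 and 45.5 in G34W, 163 and 155 in WT and 68.7 in EV replicate 2. The WT mean was 3.54 times the G34W mean, with standard deviations of 5.70 and 0.671 (n = 2 each), and it was detected in every library used. It therefore differs in level and is not an on-off gene by the limits used. UPK3BL2 and POLR2J3 (ENSG00000168255) each hold 89.9% of its 31-mers. A second gene of the symbol POLR2J3, ENSG00000285437, was 521 and 391 in G34W and 362 and 512 in WT and was not added. UPK3BL2 was 28.2 and 22.7 in G34W, 37.2 and 0 in WT and 31.9 in EV replicate 2. UPK3BL1 and UPK3BL2 together did not overlap, at 72.7 and 68.2 in G34W and 200 and 155 in WT. UPK3BL1 and POLR2J3 together did, at 463 and 641 in G34W and 696 and 579 in WT, as did POLR2J3 alone, at 419 and 596 in G34W and 532 and 423 in WT. The outcome for UPK3BL1 thus differed with the partner. The wider set also overlapped. UPK3BL1 and the 4 genes with at least 50% of its 31-mers (UPK3BL2, POLR2J3, AC105052.3 and AC105052.1) summed to 1047 and 1115 in G34W and 1149 and 935 in WT. Without UPK3BL1 these 4 genes did not overlap, at 1003 and 1069.5 in G34W and 986 and 779.6 in WT, both G34W libraries being above both WT libraries as for 11.5% of genes that passed the filter.

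Most uroplakins, the membrane proteins of the bladder lining, were low here: UPK1A, UPK2 and UPK3A did not exceed 17.2 in any library used. Of 7 listed, 2 could be tested apart from UPK3BL1 (UPK1B and UPK3BL2), and 0 were called. Their median log2 fold change was 1.83. That of UPK3BL2, 2.09, turned to -0.54 without WT replicate 2 and was 4.72 without WT replicate 1. UPK1B was 38.7 and 6.43 in G34W, 8.54 and 2.54 in WT and 14.7 in EV replicate 2, and UPK3BL2, given above, was at 0 in WT replicate 2. Of the POLR2J cluster, 14 genes with 13 symbols were tested apart from UPK3BL1, POLR2J3 being listed under 2 identifiers. Of these, 0 were called, with a median log2 fold change of -0.20. At an unadjusted p under 0.05 the count was also 0 in the KEOPS, PNMA, uroplakin and POLR2J lists. Next to UPK3BL1, RASA4, which encodes a GTPase-activating protein for Ras, was 384 and 340 in G34W and 439 and 478 in WT (log2 fold change -0.34, SE 0.34, limma adjusted p = 1).

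GON7 (ENSG00000170270) differed from the other members in that no other gene shares its sequence. It encodes a small subunit of KEOPS, the complex that places the t6A modification on transfer RNAs that read codons starting with adenine. It was listed at 0 and 1.94 in G34W, 76.0 and 115 in WT and 0 in EV replicate 2. EV replicate 2 was thus on the side of G34W. The other KEOPS subunits were detected in every library used: OSGEP, the catalytic subunit, at 2609 to 3995, TP53RK, its kinase-like partner, at 1345 to 1660, TPRKB at 463 to 532 and LAGE3 at 968 to 1239. Together with YRDC, which makes the t6A precursor, and the mitochondrial OSGEPL1, 6 of the 7 listed genes were tested and 0 were called, with a median log2 fold change of 0.02.

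GON7 (GRCh38.p14 RefSeq, chr14:93202894-93207065, minus strand) and UBR7, a gene for a ubiquitin ligase family protein that begins at 93207256 on the plus strand, start head to head. The 190 bases between their starts are shown because both genes are transcribed away from them. They are taken from the RefSeq promoter table, chr14:93207066-93207255 on GRCh38.p14, plus strand.
GON7 to UBR7: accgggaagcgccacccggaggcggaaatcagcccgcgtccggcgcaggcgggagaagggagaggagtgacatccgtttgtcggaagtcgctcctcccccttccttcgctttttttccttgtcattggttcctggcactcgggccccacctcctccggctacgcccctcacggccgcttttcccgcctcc

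UBR7 was 2774 and 2841 in G34W, 2976 and 2953 in WT and 3323 in EV replicate 2, with a log2 fold change of -0.08 (SE 0.23, limma adjusted p = 1). On the other side of GON7, TMEM251 (LYSET in RefSeq), a gene needed for tagging lysosomal enzymes, ranged from 47.3 to 194. AL110118.2, a readthrough gene on the opposite strand, was listed at 0 in 4 of the 5 libraries and at 3.07 in G34W replicate 1. GON7 and UBR7 share no 31-mers. UBR7 alone was already lower in both G34W libraries than in both WT libraries, as for 14.9% of genes that passed the filter, so a sum of the pair had to keep the groups apart and says nothing about GON7.

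TNFSF12-TNFSF13 was set beside the other readthrough genes of the table. Those named for 2 genes that are both in the table numbered 108; 98 were above 0 in a library used and 83 reached 20. Of the 83, 15 (18.1%) were also at or under 2 in another library, against 5.71% of the 16384 genes that reached 20 in any library used. The sets were not matched for level, TNFSF12-TNFSF13 is itself among the 15, and no test was made of this difference. On-off between the H3.3 groups was met by 1 of the 108, TNFSF12-TNFSF13 itself. Between the replicates of a group, 9 were off in one library and on in the other. BORCS7-ASMT, for example, was 187 and 0 in G34W and 32.8 and 0 in WT, and BLOC1S5-TXNDC5 was 614 and 0 in WT. At the other end, NME1-NME2 was between 3144 and 6695 in every library. Named after its values were seen, ABHD14A-ACY1 was 112 and 199 in G34W, 6.42 and 5.53 in WT and 11.4 in EV replicate 2, outside the limits because its low values exceed 2.

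**Figure D4:**
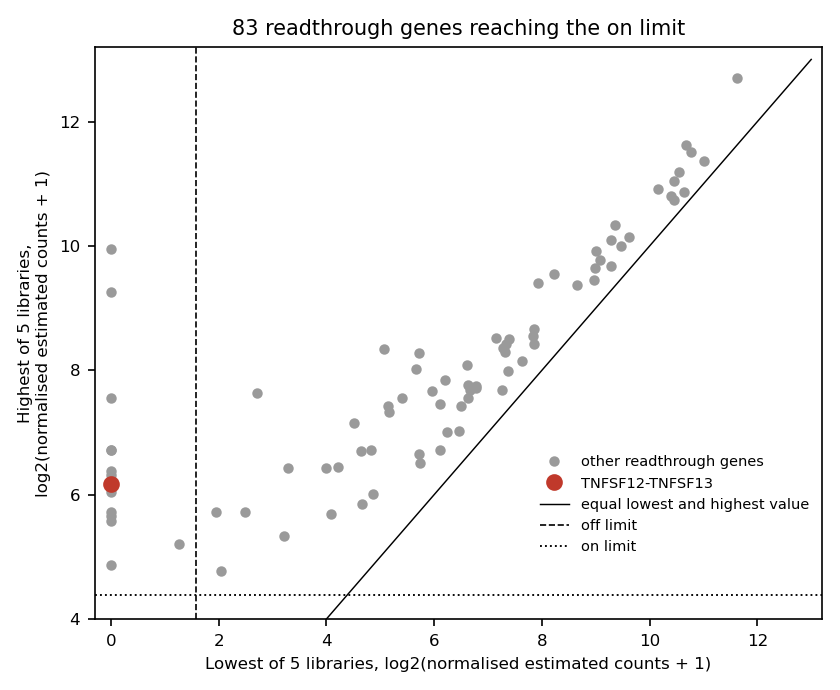
Each point is 1 of the 83 readthrough genes that reached 20 in a library; the axes are the lowest and the highest of the 5 libraries, as log2(normalised estimated counts + 1), with dashed and dotted lines at the off and on limits. TNFSF12-TNFSF13, in red, is 1 of the 15 genes to the left of the dashed line.

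By annotation instead of name, 581 genes of the table are tagged as readthrough in GENCODE 44. Of the 357 that reached 20 in a library used, 82 (23.0%) were also at or under 2 in another. Of all 581, 2 met the on-off limits between the H3.3 groups, TNFSF12-TNFSF13 and AP002748.5.

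The genes nearest to each member were found by Euclidean distance of log2(value + 1) over the 5 libraries. PNMA6B and TNFSF12-TNFSF13 were nearest to each other, at 1.59, with AC134669.1 next for both. GON7 was nearest to GP1BB (2.74) and NOXO1 (3.07), both low in G34W and EV replicate 2: NOXO1 was 3.05 and 4.55 in G34W, 22.9 and 46.4 in WT and 0 in EV replicate 2. AC146944.1 was nearest to FERP1 (2.33) and IKZF1 (2.61), and AP002748.5 to SPCS2P4 (3.35) and MAP2 (4.08). SPCS2P4, a processed pseudogene, was 94.7 and 33.5 in G34W, 0 in both WT libraries and 53.1 in EV replicate 2. UPK3BL1 was nearest to FOXF1 (0.57) and LHX9 (0.94), genes for transcription factors. FOXF1 was 39.9 and 40.4 in G34W and 129 and 173 in WT. With 5 libraries, such nearness describes these libraries only.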

How the data were processed

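Poly(A) RNA-seq of hFOB 1.19 cells was analysed from the table deposited by the authors. Transcripts had been quantified with kallisto against an Ensembl annotation of GRCh38, summed to genes by tximport and scaled with DESeq2, per the submitters' processing notes and methods; the deposited signal is not whole reads, and no count test was run. Members, lists and the on and off limits were chosen with earlier results of these data known. The sums of genes sharing sequence, the 50% limit, the pairings of neighbours that were summed and the annotation tag were chosen after values were seen. A member chosen as high in a group raises the sums of that group, so an overlap of sums is a description only.

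Genes with at least 10 in at least 2 of 5 libraries were fitted as log2(value + 1) by group means in limma 3.58.1 (R 4.3.3), with a variance trend; a call needed an adjusted p under 0.05. The code was tested on simulated data. Named genes are the members, their neighbours and partners, list genes with a count and the 2 nearest genes by distance. Alternatives changed the block, trend, libraries, pseudocount, filter, limits and scaling. The length of 31 bases is kallisto's usual setting; the authors' setting is not given in the sources used here. Figures used matplotlib 3.10.9.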

Additional observations from a re-analysis of the deposited data

Results flagged for a closer look

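DPP3 and BBS1 had values far above those of any other library in EV replicate 1. That library was used only in the alternative fit with all 6 libraries. DPP3 was 99100 there and at most 4957 elsewhere, and BBS1 was 13860 there and at most 614 elsewhere. The values of EV replicate 1 summed to 157595150, against 38821143 to 48024590 in the others, so that library is on another scale, and the part of the scale in these values was not tested. AP002748.5, which overlaps both on chromosome 11, was listed at 0 in the same library, as were the other 7 members. These values drew notice as signal in a library outside the main comparisons, above the level of the control library used there, EV replicate 2.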

How the results depend on the processing

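With each H3.3 library left out in turn, the number of genes called ranged from 0 to 117, the TNFSF12 log2 fold change from -0.28 (without WT replicate 1) to 0.68, and the TNFSF13 value from 0.31 to 0.71. A group left with 1 library was assumed to vary like the others. The difference in readthrough share, G34W minus WT, ranged from -28.6 to -7.53 percentage points around -18.1, as WT replicate 2 or 1 was left out, and the locus sum from -0.19 to 0.21 on the log2 scale, within the spread between libraries. The count of on-off genes rose from 7 to between 22 and 187, since fewer libraries have to meet the limits. The highest, 187, was without G34W replicate 2, where replicate 1 stood alone for G34W. With all the libraries used, the count was 5 with an off limit of 0, where GON7 dropped out, and 13 with an off limit of 5. It was 21 with an on limit of 10 and 3 with an on limit of 50, where PNMA6B and TNFSF12-TNFSF13 dropped out. It was 7 after rescaling. Rescaling was added to the fit after seeing the data. The number of genes called was 0 without a trend, with all 6 libraries, with only the 4 H3.3 libraries, with a pseudocount of 0.1, without the filter and after rescaling, with 28 to 791 genes at an unadjusted p under 0.05. The replicate block also gave 0 calls, with 740 at an unadjusted p under 0.05. Deviations of same-numbered libraries correlated at 0.067 across genes. With 2 libraries per group this correlation cannot decide whether the numbers pair the libraries. No depth was worked out, so low values carry a counting error that is not given here.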
